A study of Mus musculus with 6 samples.

Results

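The genes described here are the transcriptional coactivators Yap1 and Wwtr1 (Taz), the DNA-binding factors Tead1, Tead2, Tead3 and Tead4, the kinases Lats1 and Lats2, and the cofactors Vgll3 and Vgll4. They were chosen by name, by matching the Ensembl identifiers of the count table to symbols in GENCODE M21, and all 10 were found among its 46983 rows. Of the 10, 8 passed the filter on low counts and were tested, and Tead4 and Vgll3 did not. RNA was sequenced from GFP-positive cells sorted at E11.25 from 3 control embryos, which carried BAF155 flox/+ with BAF170 flox/+, and from 3 BAF155/170-deficient embryos, which carried BAF155 flox/flox with BAF170 flox/flox. Every embryo of both groups was also Wnt1Cre/+ and Rosa26 mTmG/+. BAF155 and BAF170, encoded by Smarcc1 and Smarcc2, are core subunits of the BAF chromatin remodelling complex. The Rosa26 mTmG reporter turns on GFP where Cre has acted, and the controls can lose 1 copy of each floxed gene in the same cells. The comparison is therefore of the loss of both copies with the loss of 1, and Wnt1-Cre is also active in the dorsal neural tube, so GFP does not mark the neural crest alone.

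Library totals were 8191219 to 11661941 counts in the controls and 12633319 to 19808620 in the deficient samples, so every deficient library was deeper. Smarcc1 fell, with normalised levels of 42.1, 55.0 and 35.1 CPM (counts scaled to the library size) in the controls and of 29.4, 26.4 and 24.5 CPM in the deficient libraries (log2 fold change −0.71, adjusted p = 0.0676, edgeR with Benjamini-Hochberg adjustment, but 0.41 with the libraries scaled to embryonic markers), and Smarcc2 did not pass the test (−0.11, adjusted p = 0.251). The call of Smarcc1 was lost when control replicate 1 (adjusted p = 0.222, edgeR), deficient replicate 2 (0.132) or deficient replicate 3 (0.225) was left out, and its log2 fold change of −0.53 without control replicate 2 was under the fold threshold of 0.58. Counts per gene do not separate the floxed exons. The summed level of 12 macrophage markers, including C1qa, Csf1r and Tyrobp, ran from 11758 to 13648 CPM in the controls and from 13746 to 14994 CPM in the deficient libraries. The summed level of 55 markers of mesenchymal crest, sensory neurons, autonomic cells, glial crest and neural tube was 231 to 442 CPM in the controls and 147 to 217 CPM in the deficient libraries, and the 45 of these embryonic markers that were tested had a median of −0.98 on the log2 fold change scale. The labelled cell type was thus represented by markers at a low level beside those of macrophages. In bulk RNA, fewer cells of a type and less RNA per cell cannot be told apart.

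Yap1 and Wwtr1 carry the output of the Hippo pathway. The kinases Stk3 and Stk4, with Sav1 and the Mob1 proteins, activate Lats1 and Lats2, which phosphorylate Yap1 and Wwtr1 and keep them out of the nucleus. In the nucleus Yap1 and Wwtr1 have no DNA-binding domain of their own and act through the Tead factors, and Vgll4 competes with Yap1 for Tead. In the neural crest, Yap1 and Wwtr1 are known for roles in craniofacial and vascular mesenchyme.

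The promoters of 4 of the genes are shown because they include both coactivators, the cofactor with the clearest difference between the groups and a kinase with almost none. Each run is the 250 bases before a RefSeq start (GRCm38.p6), read 5′ to 3′ on the strand of the gene, with the core of the Tead motif, GGAATG or its reverse CATTCC, in capitals. They lie at chr9:8004597-8004846 on the minus strand for Yap1, chr3:57575911-57576160 on the minus strand for Wwtr1, chr6:114969204-114969453 on the minus strand for Vgll4 and chr14:57746124-57746373 on the minus strand for Lats2.
Yap1: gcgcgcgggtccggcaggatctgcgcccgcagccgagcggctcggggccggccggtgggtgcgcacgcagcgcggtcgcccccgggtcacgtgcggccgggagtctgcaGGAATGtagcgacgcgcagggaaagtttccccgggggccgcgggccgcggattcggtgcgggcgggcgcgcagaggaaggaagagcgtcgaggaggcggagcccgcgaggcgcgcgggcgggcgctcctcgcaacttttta
Wwtr1: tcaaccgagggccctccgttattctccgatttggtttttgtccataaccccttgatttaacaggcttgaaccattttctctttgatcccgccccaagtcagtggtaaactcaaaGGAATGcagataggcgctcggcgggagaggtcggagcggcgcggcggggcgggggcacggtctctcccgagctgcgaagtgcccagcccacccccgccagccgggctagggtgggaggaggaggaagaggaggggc
Vgll4: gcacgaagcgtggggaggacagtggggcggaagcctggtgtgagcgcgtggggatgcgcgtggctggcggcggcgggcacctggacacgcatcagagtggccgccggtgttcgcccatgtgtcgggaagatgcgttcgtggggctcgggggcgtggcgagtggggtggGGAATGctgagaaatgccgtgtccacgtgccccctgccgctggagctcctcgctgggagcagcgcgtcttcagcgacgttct
Lats2: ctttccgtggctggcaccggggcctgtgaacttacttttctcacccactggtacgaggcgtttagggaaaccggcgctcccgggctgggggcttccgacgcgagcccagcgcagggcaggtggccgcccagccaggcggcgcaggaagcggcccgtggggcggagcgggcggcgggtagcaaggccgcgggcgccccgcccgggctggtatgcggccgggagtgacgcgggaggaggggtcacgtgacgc
The Yap1 window holds the motif from 141 bases before the start, the Wwtr1 window from 136 bases and the Vgll4 window from 82 bases, and the Lats2 window does not hold these letters. Nor do the windows of Tead2 (log2 fold change −1.23) and Lats1 (−0.28), which are not printed. Whether the motif goes with the differences between the groups was not tested. The Vgll4 and Lats2 windows lie inside the wider GENCODE M21 gene spans and outside their exons, and 17 bases of the Yap1 window lie in an exon of Gm45494 on the opposite strand. RefSeq promoters were present for 8 of the 10 genes, and the motif was found on either strand for 5 of them, Yap1, Wwtr1, Tead3, Vgll3 and Vgll4, where 14.4% of all 27025 genes with such a window hold it. A match in any window of a gene counts, and the 8 genes have 12 windows where all 27025 have 32851. The Tead3 window with 2 matches holds 217 bases of Tead3 exons. For Lats1, Vgll3 and Vgll4, the bases after the start were found in no GENCODE M21 transcript of the gene. The GC box GGGCGG was found for 8 of the 8 genes, where 35.4% of all genes hold it, and the E box CACGTG for 3 of the 8, where 6.86% of all genes hold it. The windows with a GC box were 57.2% to 76.8% G and C. The shares over all genes were not matched for base content. The Tead motif overlapped neither of the other motifs in the printed windows. These letter matches describe the windows and do not show binding.

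Over all 13961 tested genes, 4.88% were called lower and 0.0573% higher in the deficient samples, where a call needed an adjusted p no higher than 0.1, a log2 fold change of 0.58 or more in either direction and a mean level no lower than 2 CPM. Among the 8 tested genes, 1 was called, Vgll4, which was lower. Lats1 also passed the adjusted p threshold alone, which 7.75% of all tested genes passed in the lower direction and 4.18% in the higher, but not the fold threshold. In 4 of the 8, Tead2, Tead3, Lats1 and Vgll4, every deficient library was below every control, as in 16.4% of all tested genes. The log2 fold changes ran from −1.23 (Tead2) to 0.08 (Lats2), with a median of −0.93 where the median over all tested genes was −0.02. Calls among the 8 depended on the libraries used: none was called when control replicate 1, control replicate 2 or deficient replicate 3 was left out, 5 when control replicate 3 was, 3 when it was deficient replicate 1 and 1 when it was deficient replicate 2. The share of all tested genes called lower moved in the same fits, to 0%, 0.426%, 0.119%, 8.45%, 7.24% and 1.53% in that order. With DESeq2 and with limma-voom 4 of the 8, in both cases Yap1, Tead1, Tead2 and Vgll4, were called lower, where 6.26% and 5.94% of all tested genes were.

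**Figure D1:**
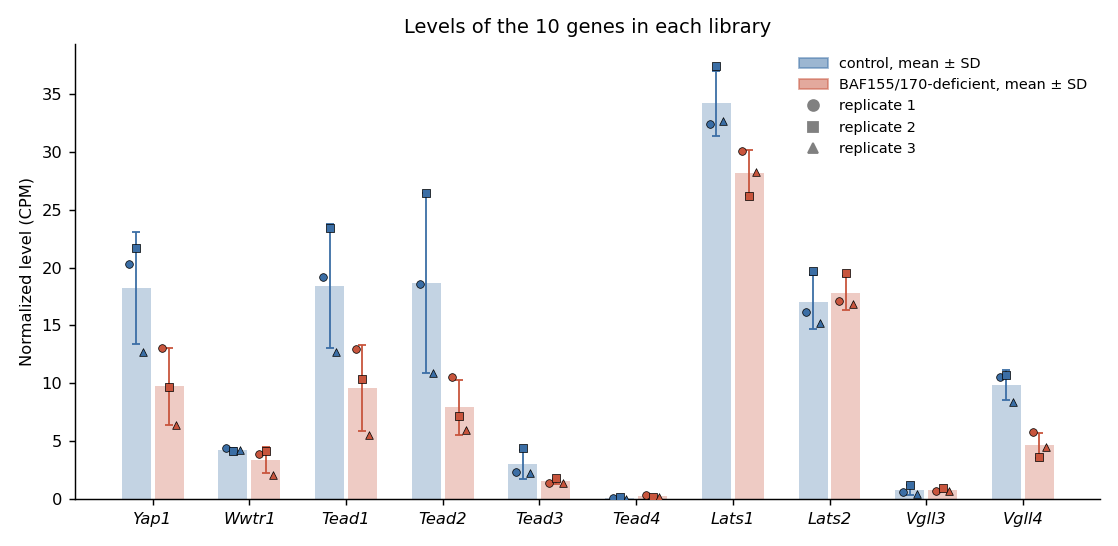
Normalised level (CPM, vertical axis) of the 10 genes in each library, with bars for the mean of 3 libraries, error bars for the SD and symbols for the replicates. Vgll4, Tead2, Tead3 and Lats1 have every deficient library below every control, while Lats2 has overlapping groups.

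Yap1 (chr9:7931999-8004596, minus strand) was measured at 20.3, 21.7 and 12.7 CPM in the control libraries and at 13.1, 9.71 and 6.36 CPM in the deficient libraries. The groups overlapped at 1 point, since deficient replicate 1 was just above control replicate 3. The means were 18.2 ± 4.82 CPM (SD, n = 3) and 9.72 ± 3.36 CPM (SD, n = 3), and the log2 fold change of −0.91 (SE 0.30) did not pass the test (adjusted p = 0.117, edgeR with Benjamini-Hochberg adjustment). Yap1 was called lower by DESeq2 (adjusted p = 0.0140) and by limma-voom (adjusted p = 0.0850), and over all alternatives its adjusted p ran from 3.73e-06 to 0.589. The raw counts of Yap1 were 155 to 191 in the controls and 134 to 167 in the deeper deficient libraries. An antisense transcript, Gm20416, shares 116 exon bases with Yap1 but held 1 to 3 counts per library.

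Wwtr1 (chr3:57455649-57575910, minus strand), the paralogue of Yap1, was measured at 4.36, 4.15 and 4.27 CPM in the controls and at 3.92, 4.15 and 2.04 CPM in the deficient libraries. Deficient replicates 1 and 2 were close to the controls, and only deficient replicate 3 stood apart. The log2 fold change was −0.35 (SE 0.29, adjusted p = 0.463, edgeR) and −0.08 without deficient replicate 3. The control libraries had an SD of 0.107 CPM around a mean of 4.26 CPM (n = 3), beside 4.82 CPM around 18.2 CPM for Yap1. Counts of Wwtr1 were 31 to 68 per library, with a counting error of 12.127% to 17.961%. Counting error thus limits the precision of its values, and the small SD does not show a stable level. Within each library, the ratio of Wwtr1 to Yap1 per kilobase of exon was 0.371 to 0.650 in the controls and 0.5799 to 0.828 in the deficient samples. The ranges overlapped, and the difference in mean log2 ratio was 0.53 (exact two-sided permutation p = 0.3, adjusted p = 0.5 over 5 ratios, where 3 against 3 libraries allow no p below 0.1).

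The Tead factors give Yap1 and Wwtr1 their access to DNA. Tead2 (chr7:45215753-45233644, plus strand), the paralogue known for expression in early neural tissue, was measured at 18.6, 26.5 and 10.9 CPM in the controls and at 10.6, 7.21 and 5.98 CPM in the deficient libraries. All deficient libraries were below all controls, although deficient replicate 1 was close to control replicate 3. Tead2 had the lowest log2 fold change of the 8 tested genes, −1.23 (SE 0.36), but its adjusted p of 0.103 (edgeR, Benjamini-Hochberg) was just too high for a call. It was called lower by DESeq2 (adjusted p = 0.00131) and limma-voom (adjusted p = 0.0836). Its exons share 13 bases with Cd37 on the opposite strand, a leukocyte gene with 364 to 1461 counts per library. The strand setting of the counting is not given in the sources used here, so reads in those 13 bases cannot be assigned with certainty.

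Tead1 (chr7:112679318-112906807, plus strand) was measured at 19.1, 23.4 and 12.7 CPM in the controls and at 12.9, 10.3 and 5.56 CPM in the deficient libraries. The log2 fold change was −0.95 (SE 0.36, adjusted p = 0.157, edgeR), and deficient replicate 1 was again just above control replicate 3. Ordered from the highest library to the lowest, Tead1 and Yap1 gave the same order of the 6 libraries. The ratio of Tead1 to Yap1 per kilobase lay between 0.643 and 0.737 in the controls and between 0.596 and 0.725 in the deficient libraries, a difference in mean log2 ratio of −0.05 (exact permutation p = 0.6).

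Tead3 (chr17:28331671-28350817, minus strand) was low, at 2.34, 4.41 and 2.22 CPM in the controls and at 1.41, 1.77 and 1.38 CPM in the deficient libraries. The groups did not overlap, and the log2 fold change was −0.94 (SE 0.35, adjusted p = 0.118, edgeR). Counts of Tead3 were 18 to 33 per library, so counting error limits the precision of its values. Tead4 (chr6:128224288-128300823, minus strand), known for its role in trophectoderm and muscle, held 1, 1 and 0 counts in the controls and 4, 3 and 3 counts in the deficient libraries. The rate ratio of the summed counts, 2 against 10, was 2.89 with an exact 95% interval of 0.617 to 27.2 that covers counting error only, so no difference was detectable at this depth.

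As shares of the summed Tead level per kilobase, Tead2 made up 64.3% to 69.6% in the controls and 58.3% to 65.6% in the deficient libraries. Tead1 made up 21.7% to 26.4% and 21.5% to 29.5%. Tead3 stayed between 6.07% and 10.8% in all 6 libraries, and Tead4 was at most 2.52%. Tead2 was therefore the highest Tead transcript per kilobase in every library. This order rests on the lengths used, 13.6 kb for Tead1 and 4.79 kb for Tead2, which join the exons of all annotated transcripts. Without the length, the mean levels of Tead1 and Tead2 were 18.4 and 18.7 CPM in the controls. In the deficient libraries they were 9.60 and 7.92 CPM. Which transcripts were expressed was not tested. The ratio of Tead2 to Tead1 differed by −0.21 in mean log2 ratio (exact permutation p = 0.4), and its ranges, 2.43 to 3.21 and 1.98 to 3.05, overlapped.

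Lats1 and Lats2 are the kinases that act directly on Yap1 and Wwtr1. Lats1 (chr10:7681214-7716460, plus strand) was measured at 32.4, 37.5 and 32.7 CPM in the controls and at 30.1, 26.2 and 28.3 CPM in the deficient libraries. All deficient libraries were below all controls by a small margin, and both groups were tight, with an SD of 2.835 and 1.93 CPM (n = 3 each). The log2 fold change was −0.28 (SE 0.09, adjusted p = 0.0965, edgeR), past the adjusted p threshold and under the fold threshold. The adjusted p of Lats1 (edgeR) was above 0.1 when control replicate 1 (0.245) or 2 (0.292) was left out, and when deficient replicate 2 (0.223) or 3 (0.277) was. With all 6 libraries it was also above 0.1 with DESeq2 (0.199). The same held in edgeR with library totals (0.272), no filter (0.220) or the length correction (0.303). It was under 0.1 with limma-voom (0.0999) and in edgeR with the replicate block (0.0553).

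Lats2 (chr14:57689662-57758388, minus strand) was measured at 16.2, 19.7 and 15.2 CPM in the controls and at 17.1, 19.5 and 16.9 CPM in the deficient libraries. The groups overlapped throughout, and the log2 fold change was 0.08 (SE 0.12, adjusted p = 0.737, edgeR). Lats2 shares 2955 exon bases with Gm49361 on the same strand, a GENCODE M21 gene model that has no row in the deposited counts. How reads in those bases were treated is not known. The ratio of Lats2 to Lats1 per kilobase was 0.522, 0.550 and 0.487 in the controls and 0.594, 0.778 and 0.624 in the deficient libraries. The ratio was higher in every deficient library than in every control, with a difference in mean log2 ratio of 0.35 and the smallest p that the design allows (exact permutation p = 0.1, adjusted p = 0.5 over 5 ratios). The ratio of Lats1 to Yap1 was 2.03, 2.19 and 3.26 in the controls and 2.92, 3.42 and 5.64 in the deficient libraries, with overlapping ranges (difference in mean log2 ratio 0.65, exact permutation p = 0.2).

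Vgll4 (chr6:114860628-114969994, minus strand) fell. It was measured at 10.5, 10.7 and 8.37 CPM in the controls and at 5.80, 3.67 and 4.46 CPM in the deficient libraries. All deficient libraries were below all controls, and the gap between the groups, from 8.37 to 5.80 CPM, was wider than the SD of either group, 1.30 and 1.08 CPM (n = 3 each). The log2 fold change was −1.09 (SE 0.21, adjusted p = 0.0483, edgeR with Benjamini-Hochberg adjustment), so Vgll4 had a smaller standard error than Tead2 at a similar size of difference. The call was lost without control replicate 1 (adjusted p = 0.214), control replicate 2 (adjusted p = 0.120) or deficient replicate 3 (adjusted p = 0.133), while the log2 fold change stayed between −1.27 and −0.95 with any 1 library left out. It was also lost, at a log2 fold change of 0.00, with the libraries scaled to embryonic markers.

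Vgll3 (chr16:65815257-65866368, plus strand), a further Tead cofactor, held 6, 9 and 5 counts in the controls and 9, 15 and 15 counts in the deficient libraries. Its rate ratio was 1.13 with an exact 95% interval of 0.643 to 2.04, which covers counting error only. The other paralogues Vgll1 and Vgll2 were also under the filter, at no more than 0.425 CPM in any library.

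**Figure D2:**
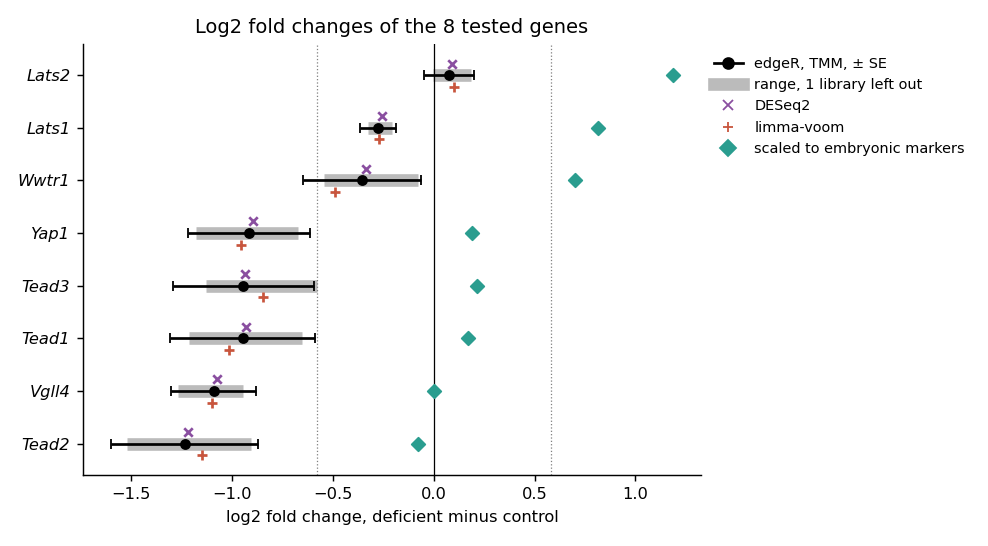
Log2 fold change, deficient minus control (horizontal axis), of the 8 tested genes with edgeR and its SE (black), the range with 1 library left out (grey bar), DESeq2 (crosses), limma-voom (plus signs) and edgeR with libraries scaled to embryonic markers (diamonds). Dotted lines mark a log2 fold change of 0.58 in either direction; Vgll4 lies at −1.09 and Tead2 at −1.23, and with the embryonic marker scaling both lie near 0.

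Compared per length, as CPM per kilobase of exon, the control levels were ordered Lats1 (4.69 ± 0.389, SD, n = 3), Tead2 (3.90 ± 1.63), Lats2 (2.44 ± 0.338), Yap1 (1.97 ± 0.521), Vgll4 (1.83 ± 0.241), Tead1 (1.36 ± 0.397), Wwtr1 (0.891 ± 0.0224), Tead3 (0.445 ± 0.184), Vgll3 (0.106 ± 0.0575) and Tead4 (0.0222 ± 0.0196). The ranges of neighbours overlapped from Lats1 down to Tead1, so that part of the order is not resolved, and below Tead1 no neighbouring ranges overlapped. In the deficient libraries Lats1 (3.86 ± 0.265) was followed by Lats2 (2.55 ± 0.210), which stood above Tead2 (1.65 ± 0.496) with no overlap. From Tead2 through Yap1 (1.05 ± 0.363), Vgll4 (0.860 ± 0.199) and Tead1 (0.708 ± 0.275) to Wwtr1 (0.705 ± 0.242) the neighbouring ranges overlapped.

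The levels of several of these genes moved with the embryonic markers across libraries. The embryonic marker sum was highest in control replicate 2 and lowest in deficient replicate 3, and Tead2 gave exactly the same order of the 6 libraries. Per 100 CPM of embryonic markers, Yap1 was measured at 6.28, 4.90 and 5.50 CPM in the controls and at 6.03, 6.17 and 4.33 CPM in the deficient libraries. Tead1 (5.30 to 5.92 against 3.78 to 6.55), Tead3 (0.724 to 0.999 against 0.650 to 1.12) and Vgll4 (2.42 to 3.62 against 2.33 to 3.04) also overlapped between the groups on this scale. Tead2 overlapped too, at 4.72 to 5.99 against 4.08 to 4.87, as did Wwtr1, at 0.939 to 1.85 against 1.39 to 2.64, and Lats1, at 8.48 to 14.1 against 13.9 to 19.3. Lats2 did not, at 4.45 to 6.56 CPM in the controls and at 7.87, 12.4 and 11.5 CPM in the deficient libraries, and was higher in all 3 of the latter. The marker sum that divides these values was 231 to 442 CPM in the controls and 147 to 217 CPM in the deficient libraries. A gene at level CPM therefore comes out higher on this scale. The share of all tested genes without overlap on it was not computed. When the libraries were instead scaled to embryonic markers, 72.8% of all tested genes were called higher.

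When the libraries were scaled to 32 embryonic markers, the log2 fold change of Vgll4 was 0.00 (adjusted p = 0.993, edgeR), that of Yap1 0.19, that of Tead1 0.17, that of Tead2 −0.08 and that of Tead3 0.21. On the same scale Wwtr1 (0.70), Lats1 (0.82) and Lats2 (1.19) were called higher, 3 of the 8, while 72.8% of all tested genes were called higher and their median was 1.06. By construction, this scale sets the typical embryonic marker to no difference and takes out whatever these markers share. Macrophage markers were tested for all 12 genes, none was called and their median was 0.18 in log2 fold change. The part of cell makeup in the differences of these genes was not tested.

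**Figure D3:**
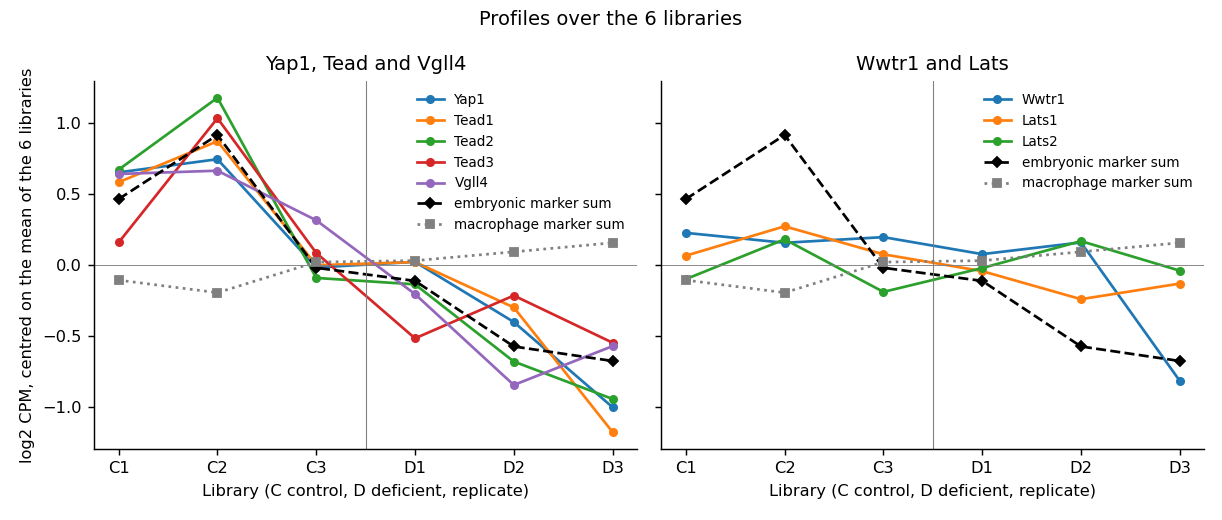
Log2 CPM centred on each gene's mean over the 6 libraries (vertical axis) for the controls (C1 to C3) and deficient libraries (D1 to D3), beside the summed embryonic (dashed) and macrophage (dotted) markers. Lines only join the points of 1 gene. Yap1, Tead1 and Tead2 run close to the embryonic marker sum, highest in C2 and lowest in D3, and Lats1 and Lats2 stay within a narrow band.

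The other genes of the pathway were read from a fixed list of 49, of which 45 were tested. Of these 45, 3 were called lower and none higher (edgeR), where 4.88% and 0.0573% of all tested genes were. The median log2 fold change was −0.15, and 33 of the 45 values were below 0. The 3 called genes, Fat4, Amotl2 and Frmd6, all belong to the regulators at cell junctions and the membrane. No gene of the list was called when control replicate 1 or 2 was left out, or when deficient replicate 2 or 3 was, and 8 were called when the library left out was control replicate 3 or deficient replicate 1, fits in which 8.45% and 7.24% of all tested genes were called lower. With the libraries scaled to embryonic markers, 31 of the 45 were called higher and none lower, around a median of 0.95, where 72.8% of all tested genes were called higher around a median of 1.06.

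Among the junction and membrane regulators, 16 of 17 were tested, all 16 log2 fold changes were below 0, with a median of −0.84, and 3 were called, where 52.3% of all tested genes were below 0 and 4.88% were called lower. The 45 tested embryonic markers had a median of −0.98, so a fall of this size was not particular to these regulators. Fat4, a giant cadherin, fell from 42.9, 56.9 and 28.8 CPM in the controls to 19.97, 17.9 and 13.2 CPM in the deficient libraries (log2 fold change −1.33, adjusted p = 0.0828, edgeR). Its ligand Dchs1 was measured at 32.9, 51.1 and 25.6 CPM against 18.8, 9.04 and 10.1 CPM and narrowly missed the threshold (−1.54, adjusted p = 0.102). The groups overlapped for neither cadherin. Amotl2, an angiomotin that binds Yap1, fell from 18.3, 27.8 and 15.4 CPM to 13.8, 11.3 and 8.83 CPM (−0.86, adjusted p = 0.0933). Its paralogues Amotl1 (−1.13, adjusted p = 0.101) and Amot (−0.99, adjusted p = 0.164) did not pass. Frmd6, a FERM-domain protein, fell from 8.83, 11.4 and 10.2 CPM to 6.89, 6.48 and 6.69 CPM (−0.60, adjusted p = 0.0774). Crb1, an apical polarity protein, passed the adjusted p threshold (−1.46, adjusted p = 0.0987) at a mean under 2 CPM and was not called.

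None of the kinases and their partners was called. The 7 tested genes of the core kinase module had a median log2 fold change of 0.11 and their values lay between −0.17 and 0.19. Stk3 (0.18, adjusted p = 0.285), Stk4 (0.11, adjusted p = 0.266) and Nf2 (−0.19, adjusted p = 0.293, edgeR), the last a membrane scaffold, are named for their place in the pathway, outside the rule for named genes. Mob1a, the activator of Lats kinases with the highest control level per length in the list (35.7 CPM per kilobase), was measured at 158, 174 and 182 CPM in the controls and at 184, 200 and 201 CPM in the deficient libraries (0.19, adjusted p = 0.110). The scaffold Sav1 was at 11.0 CPM per kilobase in the controls (0.11, adjusted p = 0.319). Of the 9 upstream kinases, with a median of −0.11, Map4k4 passed the adjusted p threshold below the fold threshold (−0.28, adjusted p = 0.0901) and Taok3 did not pass (0.15, adjusted p = 0.136). The 3 genes of the Ajuba family, which restrain Lats, had a median of −0.59 with none called. Of the 10 tested Rassf and Stripak genes, with a median of 0.01 and none called, Rassf4 had the highest control level per length at 22.6 CPM per kilobase (0.08, adjusted p = 0.429).

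**Figure D4:**
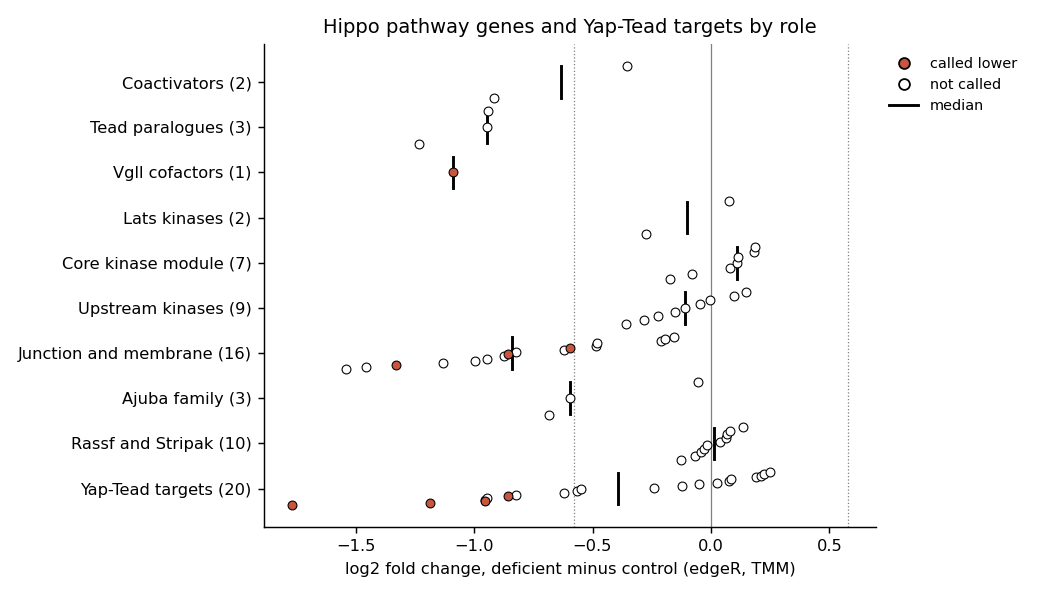
Log2 fold change, deficient minus control (horizontal axis), of each tested gene by role, with the number tested in brackets, a bar at the median and filled points for genes called lower. The 16 junction and membrane regulators all lie below 0 with a median of −0.84, the 7 core kinase genes lie around a median of 0.11, and 52.3% of all tested genes lie below 0.

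Transcripts commonly read as the output of Yap1 and Tead were taken from a fixed list of 22, of which 20 were tested, Foxf2 and Nt5e falling under the filter. Of the 20, 4 were called lower and none higher (edgeR), against 4.88% and 0.0573% of all tested genes. The median log2 fold change of the 20 was −0.39, and 13 values were below 0. In 6 of the 20 every deficient library was below every control, where 16.4% of all tested genes were, and in 4 every deficient library was above, where 15% were. None was called when control replicate 1 or 2 or deficient replicate 3 was left out, 2 when deficient replicate 2 was, 5 when deficient replicate 1 was and 7 when control replicate 3 was, the last 3 in fits that called 1.53%, 7.24% and 8.45% of all tested genes lower. With the libraries scaled to embryonic markers, 10 of the 20 were called higher and none lower, around a median of 0.71, below the 72.8% and the median of 1.06 of all tested genes. Amotl2, Fjx1 and Ptpn14 are in both lists, and Lats2 is also a target.

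Tgfb2, a transforming growth factor ligand, fell from 2.02, 4.55 and 2.79 CPM in the controls to 1.17, 0.855 and 0.712 CPM in the deficient libraries (log2 fold change −1.77, adjusted p = 0.0583, edgeR). Counts of Tgfb2 were 14 to 34 per library, so counting error limits its precision. Its mean level of 2.017 CPM was just over the 2 CPM needed for a call. Rbms3, an RNA-binding protein, fell from 4.25, 8.56 and 4.10 CPM to 2.90, 2.63 and 1.85 CPM (−1.19, adjusted p = 0.0785). Neither gene's groups overlapped. Arhgef17 fell with overlapping groups, from 16.3, 17.9 and 11.0 CPM to 11.1, 6.42 and 5.93 CPM (−0.95, adjusted p = 0.0920).

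The pair most often used as Yap1 readouts gave different values. Ccn1 was measured at 7.23, 11.1 and 5.25 CPM in the controls and at 3.99, 5.68 and 2.42 CPM in the deficient libraries (log2 fold change −0.95, adjusted p = 0.132, edgeR), and Fjx1, a kinase of the Fat cadherins, had a similar value with a wider spread (−0.95, SE 0.62, adjusted p = 0.357). Ccn2, which is named outside the rule for named genes, was measured at 6.28, 7.49 and 5.83 CPM and at 6.11, 7.94 and 5.79 CPM (0.03, adjusted p = 0.948). None of the 3 passed the test, and the difference between Ccn1 and Ccn2 was not tested.

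The targets with the highest control levels per length were Gadd45b (255 CPM per kilobase), Axl (76.0), Nuak2 (10.5), Ankrd1 (7.78) and Myof (7.05). Axl, a receptor tyrosine kinase that macrophages also express, was measured at 364, 368 and 415 CPM in the controls and at 424, 448 and 470 CPM in the deficient libraries and passed the adjusted p threshold but not the fold threshold (log2 fold change 0.23, adjusted p = 0.0901, edgeR). Nuak2 did likewise (0.21, adjusted p = 0.0964). Gadd45b (0.19, adjusted p = 0.103), Myof (0.08, adjusted p = 0.424) and Ankrd1 (−0.24, adjusted p = 0.138) did not pass. The macrophage marker sum also stood higher in every deficient library than in every control, from 13746 CPM up against 13648 CPM down, and its part in the values of Axl and Gadd45b was not tested.

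The genes most like Yap1 were sought by the root mean square distance between log2 CPM profiles over the 6 libraries, each centred on its mean, among 11786 tested genes with a mean of at least 2 CPM. The closest were Cachd1 (distance 0.0468), the neural RNA-binding protein Msi1 (0.0543), the BMP receptor Bmpr1a (0.0673), the neural POU factor Pou3f3 (0.0732) and Ripor2 (0.0734). Tead1 ranked 12 at a distance of 0.102, Tead2 ranked 272 and Wwtr1 ranked 1529. The profiles closest to Wwtr1 were those of Cdca2 (0.0189), Atm (0.0643), Prkdc (0.0727), Chd9 (0.0854) and Zfp780b (0.0865), none of which is among the 5 closest to Yap1. These distances describe only 6 libraries, in which depth and the embryonic marker sum also differ between the groups.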

How the data were processed

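RNA of GFP-positive cells from 3 control and 3 BAF155/170-deficient embryos was sequenced as strand-specific poly(A) libraries. The authors deposited raw counts per gene, made with featureCounts from paired reads that they had trimmed and aligned with STAR (GRCm38), and did not normalise them. The submitters' processing notes list FastQC 0.11.7 and cutadapt 1.18. The annotation release, the strand setting and the treatment of reads with several positions are not given in the sources used here.

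The 46983 rows were matched to GENCODE M21 by identifier, and 46488 had a name. Counts were filtered with filterByExpr (minimum count 10, minimum total count 15), normalised by TMM and tested with the robust quasi-likelihood test of edgeR 4.0.16 in R 4.3.3, with condition as the only term and p-values adjusted by Benjamini-Hochberg over all 13961 tested genes. CPM are on the normalised library sizes, and the log2 scale of profiles uses a prior count of 2. The common biological coefficient of variation was 12.8%, and totals of 8191219 to 19808620 counts leave genes under about 10 counts per library unresolved. The p-values measure the spread between 3 embryos per genotype. On simulated counts of this comparison over 13961 genes, 176 of 200 genes given a log2 difference of 2 were recovered, with 11 false calls. The simulation gave every gene the common coefficient of variation. Its difference was larger than that of any of the 8 tested genes, of which Tead2 at −1.23 was furthest from 0. It therefore does not give the share recovered at the differences reported here.

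Ratios between genes were tested by exact two-sided permutation over libraries. Alternatives were DESeq2 1.42.0, limma-voom 3.58.1, library totals, scaling to 32 embryonic markers with a mean of at least 2 CPM, no filter, a replicate block, a correction for exon length (lowess span 0.3) and each library left out. The sources used here do not say whether replicate numbers pair the samples, and the main fit did not treat them as pairs. Replicate numbers here, also in the replicate block, are those of the sample titles. The deposited columns number the libraries otherwise, as Wnt1_C1, Wnt1_C2 and Wnt1_C3 beside Wnt1_M2, Wnt_1_M3 and Wnt1_M4. The deviations of libraries with the same title number correlated at 0.03, −0.03 and 0.29. Those of the other pairs between the groups correlated at −0.30 to 0.26. By column number, control replicate 2 would go with deficient replicate 1 (0.26) and control replicate 3 with deficient replicate 2 (0.0004). These values do not settle whether the samples were paired. Named were all 10 genes, Smarcc1 and Smarcc2, the called genes of the other lists with the 5 of largest absolute log2 fold change and the 5 of highest control level per length, and the 5 profiles nearest to Yap1 and to Wwtr1. The genes and lists were chosen with earlier results of these data known. Of the other marker lists, the median log2 fold change was 0.51 for neutrophils (3 tested), −0.24 for erythroid cells (8 tested), 0.06 for endothelium (5 tested), −1.18 for mesenchymal crest (16 tested), −1.22 for sensory neurons (10 tested), −0.80 for autonomic cells (3 tested), −0.98 for glial crest (5 tested) and −0.83 for the neural tube (11 tested), and no epithelial marker passed the filter. Promoter sequences are from RefSeq (GRCm38.p6). Figures used Python 3.11.15, pandas 2.3.3 and matplotlib 3.10.9.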

Additional observations from a re-analysis of the deposited data

How the results depend on the processing

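The direction of the tested members held under every alternative other than scaling to embryonic markers, except that Lats2 was at −0.0031 without control replicate 3. Scaling to embryonic markers moved the median of all genes to 1.06 and gave log2 fold changes of −0.08 for Tead2, 0.19 for Yap1, 0.70 for Wwtr1, 0.17 for Tead1, 0.21 for Tead3, 0.82 for Lats1, 1.19 for Lats2, 0.0034 for Vgll4, 0.41 for Smarcc1 and 0.97 for Smarcc2, and called 10201 of all genes, 3 members, 31 other Hippo genes and 10 targets, where edgeR with TMM called 689, 1, 3 and 4. Members called were 4 with DESeq2, 4 with limma-voom, 3 with library totals, 4 with no filter on low counts and 3 with the length correction, settings that called 6.26%, 5.94%, 4.95%, 3.02% and 4.45% of all tested genes lower. Other Hippo genes called were 5 with DESeq2, 6 with limma-voom and 6 with no filter. With the replicate block, 1164 genes (8.19% of all lower), 5 members, 7 other Hippo genes and 5 targets were called. Leaving out 1 library gave 0 to 1245 genes, 0 to 5 members, 0 to 8 other Hippo genes and 0 to 7 targets, the 0 over all genes arising without control replicate 1. With edgeR, 2547 genes then still had an unadjusted p under 0.05. Smarcc1 ran from −0.86 to −0.53 with 1 library left out and was −0.57 with the length correction, under the fold threshold. The log2 ratio of Tead1 to Yap1 ran from −0.12 to 0.027. The cause of these moves was not tested.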
